A study of Mus musculus with 6 samples.

Results

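Kit ligand and the platelet-derived growth factors (PDGFs), with their receptors Kit and Pdgfra, were followed across 6 oligonucleotide arrays of mouse ovarian material. The genes described are the 7 members Kitl, Kit, Pdgfa, Pdgfb, Pdgfc, Pdgfd and Pdgfra, taken by name. Every probe set that the platform annotation assigns to one of these symbols was used, which gave 18 of the 45101 probe sets and 7 of the 18193 genes named by a single symbol. 3 arrays carried RNA of granulosa cell tumors from Smad1/5/8 mutant mice, which had no treatment. Smad1, Smad5 and Smad8 (now Smad9) are the transcription factors that act after bone morphogenetic protein receptors. The other 3 carried RNA of isolated wild-type granulosa cells, the somatic cells around the oocyte, from C57BL/6J;129S5/SvEvBrd females aged 21 days. These females received pregnant mare serum gonadotropin (PMSG), a hormone with follicle-stimulating activity, 44 to 46 hours before collection, and each sample pooled cells of 2 to 3 females. The tumors are described as independent of each other. Neither the alleles, nor the cell type in which the Smads were mutated, nor strain and age of the tumor-bearing mice are stated in the labels or design text.

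Kit is a receptor tyrosine kinase whose ligand is made by granulosa cells as a membrane-bound or shed protein. In the ovary the oocyte and theca cells carry Kit, and signalling through it is known for its part in follicle growth and oocyte survival. PDGFs are dimeric growth factors that act on mesenchymal cells, among them fibroblasts, theca progenitors and the mural cells of vessels. Pdgfra encodes the alpha receptor, which binds PDGF-A, PDGF-B and PDGF-C. PDGF-C and PDGF-D are secreted in a latent form and become active once a protease removes their CUB domain.

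Values are linear array signals as deposited, scaled to a trimmed mean of 500 on each array. Groups were compared with limma on log2(signal + 32) across all 11611 genes whose signal reached 100 on 3 arrays or more, with each gene represented by its brightest passing probe set. The threshold for a call was 0.05 after Benjamini-Hochberg adjustment. All 7 members were tested, and 16 of their 18 probe sets passed that filter. Over all tested genes 27.2% were called, 14.5% as higher and 12.6% as lower in tumors, and the 2 groups did not overlap in 46.3%. The split of calls moved with the scaling: it was 1686 higher and 1468 lower as reported, 1732 and 910 with arrays scaled to their median, and 364 and 7879 with arrays scaled to the bacterial hybridisation controls, where the median of all genes was -1.02. Tumors and wild-type samples also differed in tissue against isolated cells, in hormone priming, in RNA storage and in the signal software named (GCOS for tumors, MAS5 for wild type), so none of these can be told apart from the genotype. As a measure of RNA quality, the 3' control probe set of Actb exceeded the 5' one by 0.570 to 0.966 on the log2 scale in tumors and by 0.328 to 0.669 in wild-type samples, while the same difference for Gapdh was -0.469 to -0.244 in tumors and -0.455 to -0.324 in wild-type samples, ranges that overlap. The part of RNA quality in the results below was not tested.

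The tumors had higher signals of the alpha receptor gene Pdgfra and of the ligand gene Pdgfa, and lower signals of the ligand gene Pdgfd. These were the 3 members called, 2 higher and 1 lower of 7, beside 14.5% and 12.6% of all tested genes. Kitl, Kit, Pdgfb and Pdgfc did not pass. For 4 of the 7 members the tumor values lay all on one side of the wild-type values: above for Kitl, Pdgfa and Pdgfra (3 of 7, beside 23.7% of all tested genes), below for Pdgfd (1 of 7, beside 22.6%). The median log2 fold change of the 7 members was 0.56, beside -0.0049 over all tested genes. The plot of signals by array shows each gene's 6 values.

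**Figure D1:**
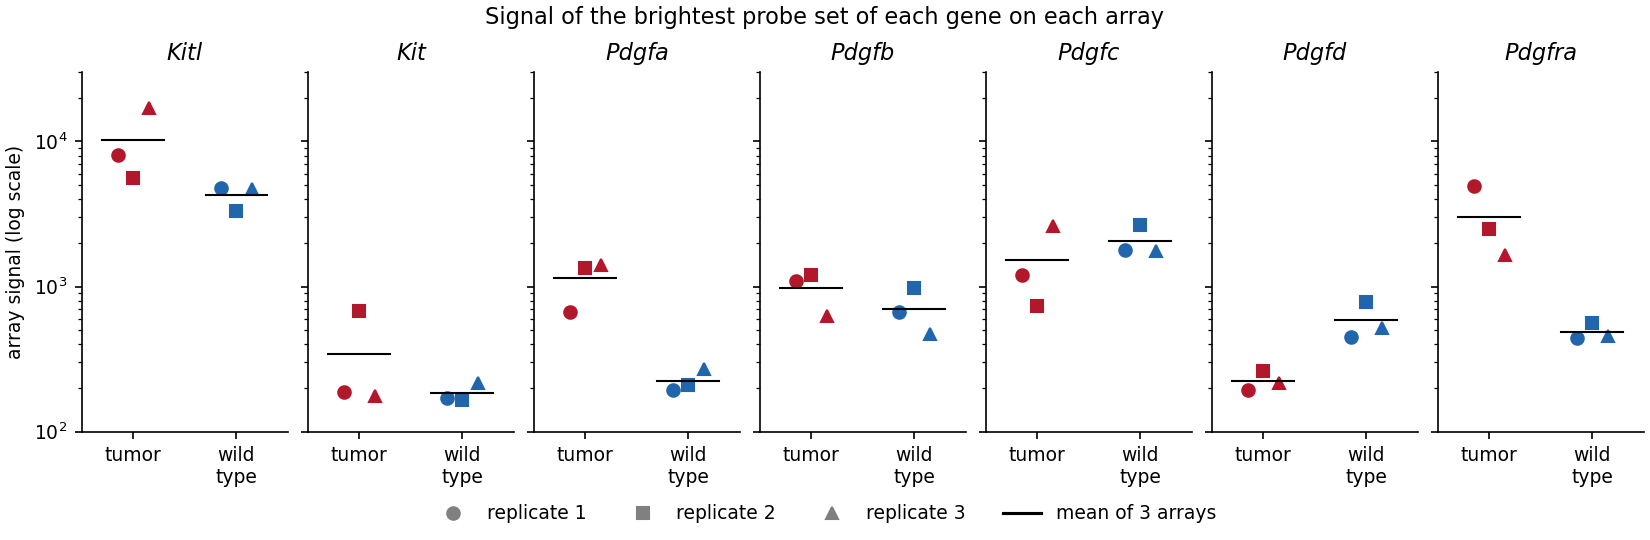
Signal of the brightest probe set of each of the 7 genes (y axis, array signal on a log scale) on the 3 tumor arrays (left, red) and the 3 wild-type arrays (right, blue); symbols give the replicate number and black bars the mean of 3 arrays. The tumor points lie above all wild-type points for Kitl, Pdgfa and Pdgfra and below them for Pdgfd; the Kit signal of 675 in tumor 2 stands apart from the other 5 arrays.

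Promoter windows of 6 of the 7 members were found in the RefSeq table of build GRCm38.p6, each running from 250 bases before to 50 bases after an annotated start. Shown here are those of the 3 members that were called, and that of Kitl, the gene of the granulosa-derived ligand. Capitals mark 3 motifs searched on both strands: the TATA box letters TATAAA, the GC box GGGCGG, and GGCGCC, a GC-rich sequence known to be bound by Smad1 and Smad5. Where Pdgfa has several starts in the table, the most upstream is shown.
Kitl, chr10:100015571-100015870, plus strand: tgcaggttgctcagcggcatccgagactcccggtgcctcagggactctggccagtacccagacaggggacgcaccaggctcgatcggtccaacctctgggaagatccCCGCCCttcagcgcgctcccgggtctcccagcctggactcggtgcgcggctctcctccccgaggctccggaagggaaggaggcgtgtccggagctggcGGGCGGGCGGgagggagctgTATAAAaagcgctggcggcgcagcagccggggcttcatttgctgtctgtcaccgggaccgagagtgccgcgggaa
Pdgfa, chr5:138994895-138995194, minus strand: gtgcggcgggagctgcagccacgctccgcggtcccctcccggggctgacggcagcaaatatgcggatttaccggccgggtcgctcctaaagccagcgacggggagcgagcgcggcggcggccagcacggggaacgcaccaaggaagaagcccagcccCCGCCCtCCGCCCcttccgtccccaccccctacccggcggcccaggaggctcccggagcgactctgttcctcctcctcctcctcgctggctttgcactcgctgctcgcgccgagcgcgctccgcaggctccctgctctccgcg
Pdgfd, chr9:6168236-6168535, plus strand: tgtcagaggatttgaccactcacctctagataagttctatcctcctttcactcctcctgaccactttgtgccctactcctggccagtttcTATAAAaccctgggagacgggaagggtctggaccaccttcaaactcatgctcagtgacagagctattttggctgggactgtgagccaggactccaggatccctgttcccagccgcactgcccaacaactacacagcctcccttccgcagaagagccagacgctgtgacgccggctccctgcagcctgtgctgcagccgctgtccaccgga
Pdgfra, chr5:75152001-75152300, plus strand: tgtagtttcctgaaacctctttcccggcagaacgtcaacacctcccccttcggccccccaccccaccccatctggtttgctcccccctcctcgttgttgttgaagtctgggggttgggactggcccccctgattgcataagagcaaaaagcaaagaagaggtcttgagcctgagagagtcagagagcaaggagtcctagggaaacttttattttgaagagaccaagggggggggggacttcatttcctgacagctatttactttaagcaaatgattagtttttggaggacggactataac

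The windows differ in base composition and in these letters. Bases G and C made up 68.7% of the Kitl window, 73.3% of the Pdgfa window, 56.7% of the Pdgfd window and 51.0% of the Pdgfra window, beside a median of 52.7% over the 32851 windows of the table. The Kitl window holds TATAAA 25 bases before the start and 3 copies of the GC box, 2 of which overlap each other. The Pdgfa window shown holds 2 GC boxes, and the Pdgfd window TATAAA 160 bases before its start. None of the 3 motifs is in the Pdgfra window, and GGCGCC was found only in the window of Pdgfc, from base 1 after its start, among the 8 windows of the members. Over all windows of the table, 13.6% hold TATAAA, 35.7% the GC box and 11.9% GGCGCC. These matches describe letters in the windows and were not measured on the arrays.

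Kitl, the ligand gene, had signals of 8095, 5610 and 17013 in tumors 1, 2 and 3, against 4776, 3328 and 4733 in wild-type samples 1, 2 and 3. Every tumor lay above every wild-type sample, and tumor 3 was the highest array by a wide margin. The log2 fold change was 1.11 (limma SE 0.39, 95% interval 0.19 to 2.04), and it did not pass across all genes (limma adjusted p = 0.0752). The call moved with the tumor left out: without tumor replicate 2, the lowest tumor, the log2 fold change was 1.47 (limma adjusted p = 0.0311), and without tumor replicate 3 it was 0.67 (limma adjusted p = 0.0909). Scaled to the hybridisation controls it was 0.05.

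The other 3 Kitl probe sets gave the same order of the tumors, with tumor 3 highest and tumor 2 lowest in each. The probe set next in brightness read 3565, 1973 and 5330 in tumors, against 2004, 1598 and 1694 in wild-type samples, so that tumor 2 lay below wild-type sample 1. Tested on their own, the 4 Kitl probe sets had log2 fold changes between 0.57 and 1.11, and 0 of the 4 passed in limma (adjusted p between 0.0817 and 0.286), while 3 of the 4 had an unadjusted p under 0.05. Kit ligand is shed from the cell surface by metalloproteases, and the genes of 2 such enzymes, Adam10 and Adam17, did not pass, with log2 fold changes of 0.18 and -0.23; both were looked at as members of the processing list described below and chosen after their values were seen.

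Kit, the receptor gene, was dim on 5 of the 6 arrays. Its brighter probe set read 187, 675 and 175 in tumors 1, 2 and 3, against 171, 166 and 216 in wild-type samples. Tumor 2 stood apart, while the other tumors lay within the wild-type range. The second probe set had the same shape, with 84.4, 292 and 72.3 in tumors and 84.7, 79.6 and 13.5 in wild-type samples, and reached 100 on that single tumor array. Kit did not pass (log2 fold change 0.56, limma SE 0.46, 95% interval -0.51 to 1.63, limma adjusted p = 0.395), and without tumor replicate 2 the log2 fold change was -0.02 (limma adjusted p = 0.961). It was also below 0, at -0.37, when arrays were scaled to the hybridisation controls.

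Cells known to carry Kit were followed through their own markers. Without the filter on dim signals, 3 of 15 oocyte genes fell and 0 rose in limma, with a median log2 fold change of -0.44. With it 6 were tested and 5 fell, but most of these passed the filter only through the wild-type arrays, so that count was bound to lean one way. Zp3, which encodes a protein of the egg coat, had signals of 79.0, 26.3 and 8.44 in tumors, against 340, 291 and 192 in wild-type samples, at least 2.67-fold lower (limma adjusted p = 0.00698). Dazl, an RNA-binding protein gene of germ cells, was at least 1.81-fold lower (limma adjusted p = 0.0123). The summed signal of the 15 oocyte genes was 701, 647 and 974 in tumors and 2074, 2110 and 1328 in wild-type samples, and 5 of the 15 stayed under 100 on every array. Without 1 wild-type sample only 1 or 2 of these genes were bright enough on 3 arrays to be tested.

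Mast cells are another Kit-bearing type. Of 11 mast cell genes 2 could be tested: Hdc, the gene of histidine decarboxylase, fell by 0.84 as log2 fold change (limma SE 0.24, limma adjusted p = 0.0389), and Gata2 did not pass. The Hdc call was lost without 5 of the 6 samples in turn, with tumor replicate 1 the exception (limma adjusted p up to 0.116). Without the filter 0 of the 11 were called. Several of the genes not tested were highest in tumor 1. The granule protease genes Mcpt4 and Tpsb2 read 267 and 355 there and at most 41.0 on the other 5 arrays. Cpa3 read 357 in tumor 1 and at most 110 elsewhere, and Cma1 326 and at most 97.2. Fcer1a was also highest in tumor 1, at 97.4. Others did not share this: Tpsab1 read 68.2, 66.3 and 77.0 in tumors, against 114, 56.9 and 46.4 in wild-type samples. Ms4a2, Gata1 and Hpgds were each highest on an array other than tumor 1. These genes were chosen after their values were seen. The summed mast cell signal was 1995, 845 and 883 in tumors 1, 2 and 3 and between 663 and 1030 in wild-type samples. Tumor 2, the array with the high Kit signal, thus had neither the highest oocyte nor the highest mast cell sum. Its endothelial sum, 16451, was the highest of the 6 arrays, as were its fibroblast sum, 75451, and its smooth muscle and pericyte sum, 32660. Its macrophage, platelet, granulosa and theca sums were not the highest. The part of any of these cell types in the Kit signal was not tested.

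Among the PDGF ligands, Pdgfa gave the clearest difference. The gene encodes PDGF-A, which forms a dimer that binds the alpha receptor. Its signals were 670, 1343 and 1407 in tumors, against 194, 208 and 272 in wild-type samples, and the lowest tumor was above the highest wild-type sample. Pdgfa rose by 2.13 on the log2 scale (limma SE 0.30, 95% interval 1.44 to 2.83, limma adjusted p = 0.0035). The other Pdgfa probe set read 924, 1256 and 1139 in tumors, against 179, 244 and 227 in wild-type samples, a log2 fold change of 2.19 when tested on its own (limma SE 0.19, limma adjusted p = 0.00083). Both probe sets placed tumor 1 lowest of the tumors. The call held without each sample in turn, with log2 fold changes from 1.98 to 2.47.

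Pdgfd went the other way. Its brightest probe set read 193, 262 and 217 in tumors, against 446, 787 and 519 in wild-type samples. The gene fell by 1.24, as log2 fold change (limma SE 0.23, 95% interval -1.78 to -0.70, limma adjusted p = 0.00928). A further probe set read 207, 160 and 64.6 in tumors, against 316, 362 and 399 in wild-type samples, with a log2 fold change of -1.25 tested on its own (limma SE 0.33, limma adjusted p = 0.034). In both, every tumor lay below every wild-type sample. The third Pdgfd probe set stayed under 100 on all 6 arrays, between 13.7 and 50.5, and was not tested. Leaving out each sample in turn kept the Pdgfd call, with log2 fold changes from -1.40 to -1.01.

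Pdgfb and Pdgfc did not pass. Pdgfb, known from endothelial cells and platelets, read 1090, 1204 and 622 in tumors, against 665, 978 and 472 in wild-type samples. The groups overlapped, since tumor 3 lay below 2 wild-type samples. Its log2 fold change was 0.45 (limma SE 0.33, 95% interval -0.32 to 1.22, limma adjusted p = 0.343), and that of its dimmer probe set was 0.39; scaled to the hybridisation controls the direction turned, to -0.57. Pdgfc, the gene of a latent ligand of the alpha receptor, read 1195, 732 and 2614 in tumors, against 1784, 2653 and 1758 in wild-type samples.

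The Pdgfc values of tumors 1 and 2 lay below all wild-type values, and that of tumor 3 lay near the highest of them. Its log2 fold change was -0.61 (limma SE 0.43, 95% interval -1.63 to 0.42, limma adjusted p = 0.336). Without tumor replicate 3 it was -1.09 and passed (limma adjusted p = 0.0352), and without tumor replicate 2 it was -0.19. Scaled to the hybridisation controls it was -1.65 and passed (limma adjusted p = 7.64e-05). The other Pdgfc probe set had the same order of the tumors, with 1138, 597 and 2991, against 1723, 2246 and 1428 in wild-type samples. The intervals of Pdgfb and Pdgfc hold changes of over 1 on the log2 scale in one direction, so a difference of that size could not be told from none with 3 arrays per group.

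Pdgfra, the receptor gene, had the highest fold change of the 7 members by their brightest probe sets on all 6 arrays. Pdgfa was above it with the mean of probe sets (2.16 against 1.55) and without tumor replicate 1 (2.47 against 2.00). Its brightest probe set read 4918, 2505 and 1653 in tumors 1, 2 and 3, against 441, 564 and 454 in wild-type samples. Even the lowest tumor stood well above every wild-type sample. Pdgfra rose by 2.42 on the log2 scale (limma SE 0.37, 95% interval 1.55 to 3.29, limma adjusted p = 0.00466), the 155th highest of the 11611 fold changes. The call held without each sample in turn, with log2 fold changes from 2.00 without tumor replicate 1 to 2.78 without tumor replicate 3.

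The 2 dimmer Pdgfra probe sets were also higher in most tumors but did not pass on their own. The first of them read 997, 534 and 171 in tumors, against 142, 121 and 236 in wild-type samples, so tumor 3 lay inside the wild-type range (log2 fold change 1.35, limma SE 0.55, limma adjusted p = 0.121). The other read 167, 230 and 100.1 in tumors and stayed under 100 in all wild-type samples, at 82.8, 74.1 and 61.2, a signal at least 1.57-fold higher in tumors (limma adjusted p = 0.0517). This probe set passed the filter only through the 3 tumor arrays, so its direction was bound. With the mean of the 3 probe sets in place of the brightest, the Pdgfra log2 fold change was 1.55 (limma adjusted p = 0.0186). Of the 16 passing probe sets of the 7 genes, 3 were called higher, 2 lower and 11 were not called; of all 24168 passing probe sets tested on their own, 23.0% were called, 11.1% higher and 11.9% lower.

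**Figure D2:**
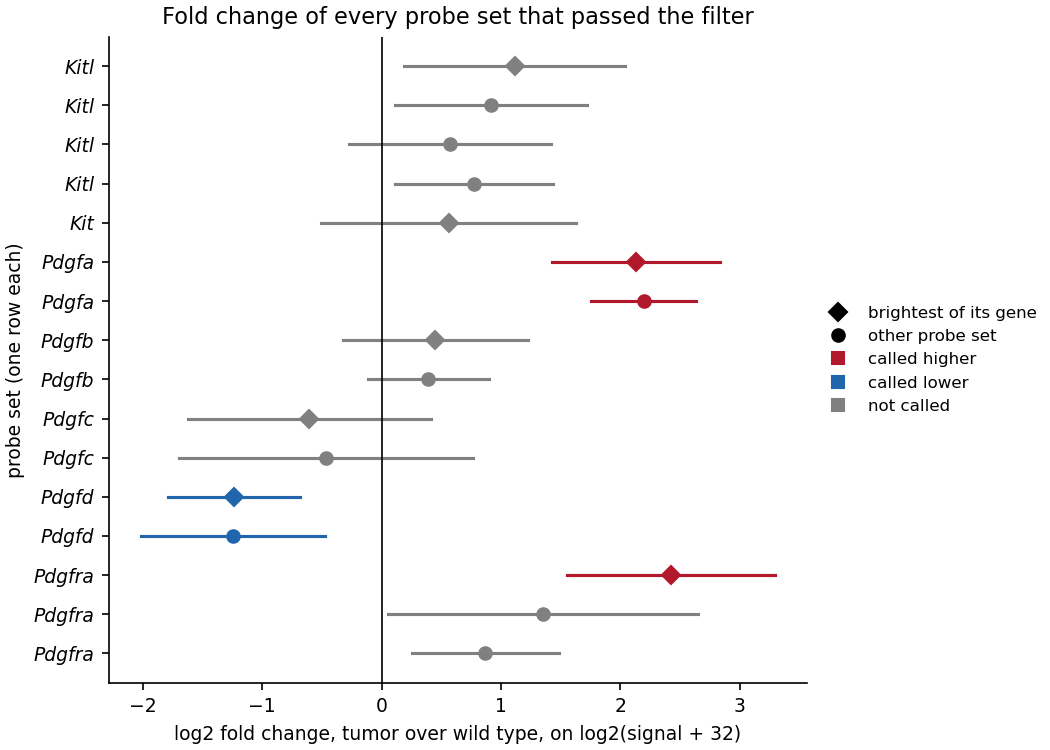
Log2 fold change of tumor over wild type on the log2(signal + 32) scale (x axis), with its 95% interval, for the 16 probe sets of the 7 genes that passed the filter (1 row each, named by gene); diamonds mark the brightest probe set of a gene, red those called higher and blue those called lower when each probe set was tested on its own. Both Pdgfa probe sets lie near 2 and both Pdgfd probe sets near -1, while the 3 Pdgfra probe sets range from 0.87 to 2.42.

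By the brightest probe sets, the tumors varied among themselves more than the wild-type samples did for 5 of the 7 genes, Pdgfb and Pdgfd being the others. Over all tested genes the median SD of the log2 values was also larger between tumors, at 0.239 against 0.186. Each wild-type sample pooled cells of 2 to 3 females, and the part of pooling in this was not tested. The highest tumor signal was 3.85 times the lowest for Kit, 3.57 times for Pdgfc, 3.03 times for Kitl and 2.98 times for Pdgfra, beside a median of 1.40 over all tested genes. For Kit, the SD of the log2 values between tumors was above that of 97.6% of the tested genes, and for Pdgfc above 96.8%. Pdgfd was even across tumors by its brightest probe set, at 1.36 times. Its other passing probe set was not even, with 207, 160 and 64.6 in tumors. The SD of its log2 values was 0.68 between tumors and 0.16 between wild-type samples. Between wild-type samples the ratio of highest to lowest signal of the brightest probe sets ran from 1.28 for Pdgfra to 2.07 for Pdgfb, beside a median of 1.30.

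The 3 tumors had different profiles of these genes. Against the mean of the wild-type samples, tumor 1 had the highest Pdgfra level, by 3.26 on the log2 scale, with Kit at 0.03. Tumor 2 had the highest Kit level, by 1.71, and the lowest Pdgfc level, at -1.43. Tumor 3 had the highest Kitl level, by 2.00, and the lowest Pdgfra level of the tumors, by 1.71. With a single array for each tumor, these profiles have no replicate check.

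**Figure D3:**
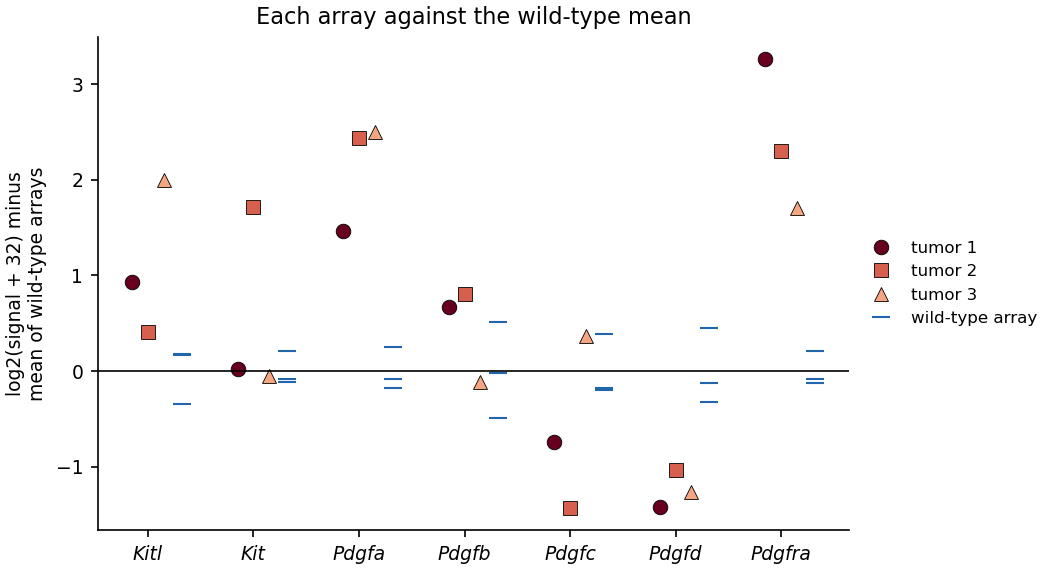
Each tumor array (filled symbols) and each wild-type array (blue dashes) for the brightest probe sets of the 7 genes, as log2(signal + 32) minus the mean of the 3 wild-type arrays (y axis). Tumor 2 is the array with high Kit (1.71), tumor 3 that with high Kitl (2.00) and tumor 1 that with the highest Pdgfra (3.26); the 3 tumors lie close together for Pdgfd.

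Other genes of the pathway came from lists chosen for this account. Of 14 tested genes whose products process, shed or bind these ligands, 8 rose, 0 fell and 6 did not pass in limma, with a median log2 fold change of 0.96 (10 higher and 1 lower at an unadjusted p under 0.05). The shares over all tested genes were 14.5% higher and 12.6% lower. With arrays scaled to the hybridisation controls the list had 3 higher and 3 lower and a median of -0.06. The count was 6 to 10 without 1 sample at a time; it was 6 without tumor replicate 1 or 2 or wild-type replicate 1 or 3. Pcsk5, which encodes a proprotein convertase, had signals of 3352, 6023 and 9638 in tumors, against 1298, 1069 and 1366 in wild-type samples, and rose by 2.20 (limma SE 0.36, limma adjusted p = 0.00607). Pcsk6, another convertase gene, rose by 1.99 (limma SE 0.21, limma adjusted p = 0.00137). Convertases of this family cut the precursors of PDGF-A and PDGF-B. Pcsk7, a further convertase gene of the list, went the other way, with a log2 fold change of -0.39. It read 378, 344 and 377 in tumors, against 456, 597 and 431 in wild-type samples, and did not pass (limma adjusted p = 0.121). Pcsk7 was chosen after its values were seen.

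Furin and Plat, both chosen after their values were seen, belong to the same list. Plat encodes tissue plasminogen activator, which activates PDGF-C, and rose by 1.10 (limma SE 0.21, limma adjusted p = 0.0109), with 597, 979 and 686 in tumors and 282, 370 and 338 in wild-type samples. Scaled to the hybridisation controls it was at 0.09 and lost its call (limma adjusted p = 0.819). Furin rose by 0.91 (limma SE 0.26, limma adjusted p = 0.0413), a call that was kept only without tumor replicate 3 when samples were left out in turn (limma adjusted p up to 0.124), and it turned to -0.11 when scaled to the hybridisation controls. Plau and St14, the genes of proteases known to activate PDGF-D, did not reach 100 on 3 arrays and were not tested.

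Of 33 tested adaptors, kinases and negative regulators that act at such receptors, 7 rose, 2 fell and 24 did not pass, with a median log2 fold change of 0.24. Beside them stand the 14.5% and 12.6% of all tested genes. Scaled to the hybridisation controls 0 were higher and 19 lower, with a median of -0.81, and the calls of Grb10 (0.27, limma adjusted p = 0.494) and Sh2b2 (limma adjusted p = 0.162) were lost. The count of higher genes was 3 without tumor replicate 1 or 2 or wild-type replicate 1. It was 4 with wild-type replicate 3 left out. Sh2b2, an adaptor gene, was at least 2.39-fold higher in tumors (limma adjusted p = 0.0125). It passed the filter only through the 3 tumor arrays, so its direction was bound. Without any 1 of these arrays it was not tested. Without 1 wild-type sample its limma adjusted p was up to 0.04998, and with no filter it was 0.0299. Grb10, which encodes an adaptor that binds receptor kinases, rose by 1.30 (limma SE 0.19, limma adjusted p = 0.00382), or by 0.65 with the mean of its probe sets. Socs1, the gene of a suppressor of cytokine signalling, fell by 0.97 (limma SE 0.27, limma adjusted p = 0.0377), a call lost without tumor replicate 1 or 2 or wild-type replicate 1 or 3.

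Of 14 tested effectors of the Ras-MAPK and PI3K-Akt pathways, 3 rose, 2 fell and 9 did not pass, with a median log2 fold change of 0.15. These counts stand beside 14.5% higher and 12.6% lower over all tested genes. Scaled to the hybridisation controls 0 of the 14 were higher and 9 lower, with a median of -0.90. The calls of Spred2 (0.18, limma adjusted p = 0.666) and Dusp6 (0.08, limma adjusted p = 0.851) were then lost. With the mean of its probe sets, Spred2 was at 0.62. Spred2, an inhibitor of Ras-MAPK signalling, rose by 1.20 (limma SE 0.20, limma adjusted p = 0.00704), with 1157, 1340 and 837 in tumors and 466, 404 and 512 in wild-type samples. Dusp6, the gene of a phosphatase of ERK that is itself induced by that pathway, rose by 1.09 (limma SE 0.20, limma adjusted p = 0.00891). Ksr1, a scaffold gene of the same cascade, fell by 0.95 (limma SE 0.21, limma adjusted p = 0.0175), a call lost without wild-type replicate 1. Without that sample 0 of the 14 were lower.

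**Figure D4:**
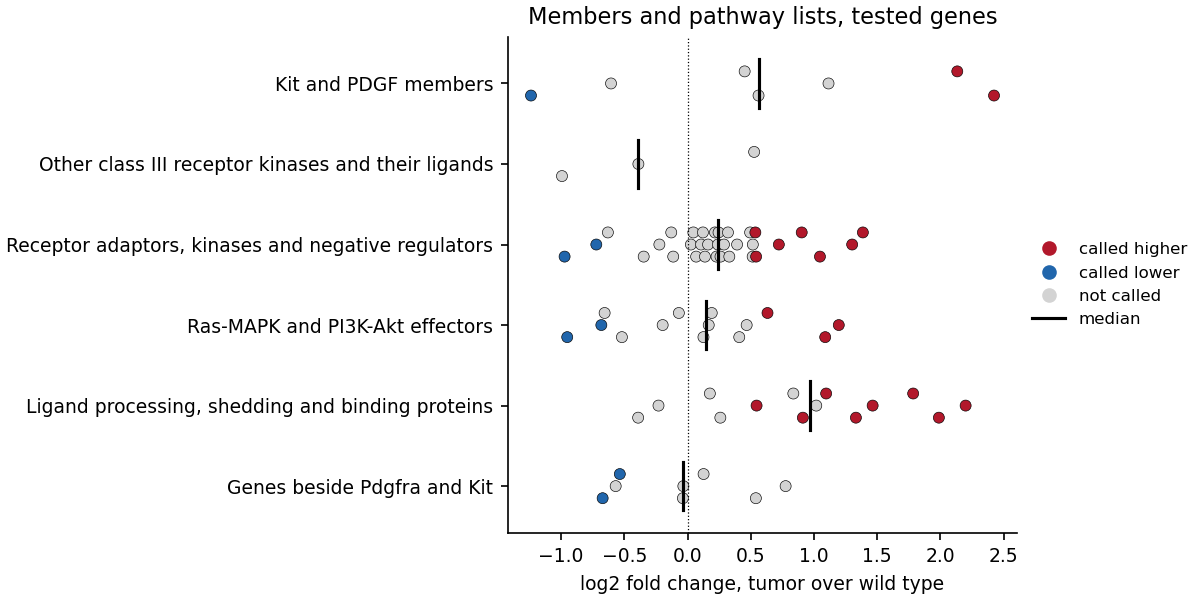
Log2 fold change of tumor over wild type (x axis) for the tested genes of the 7 members and of 5 gene lists (rows); each point is a gene, red if called higher, blue if called lower and grey if not called, and black bars give the median. The list of processing, shedding and binding proteins has 8 of 14 genes called higher and a median of 0.96, while the genes beside Pdgfra and Kit on chromosome 5 lie around 0.

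Few other members of the same receptor class could be followed. Csf1, Il34 and the receptor-like gene Pdgfrl were tested, and 0 of the 3 passed in limma, while 1, Pdgfrl, had an unadjusted p under 0.05. Its log2 fold change was -0.99 (limma adjusted p = 0.0942), which passed without tumor replicate 2 (limma adjusted p = 0.0198).

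Pdgfra and Kit are neighbours on mouse chromosome 5, with Kdr, an endothelial receptor gene, next in the order of protein-coding genes of the RefSeq table. Among 8 tested genes to either side, 0 were higher, 2 lower and 6 did not pass in limma (2 higher and 2 lower at an unadjusted p under 0.05), and the median log2 fold change was -0.035. Over all tested genes 14.5% were higher and 12.6% lower. The 2 lower genes were Srd5a3, which fell by 0.67 (limma SE 0.14, limma adjusted p = 0.0138), and Tmem165, which fell by 0.54 (limma SE 0.14, limma adjusted p = 0.0263). Leaving out wild-type replicate 1 ended each call, and that of Tmem165 held only without tumor replicate 3. With median scaling both calls were also lost (limma adjusted p = 0.0614 for Srd5a3 and 0.151 for Tmem165), with 1 gene higher and 0 lower. The count of higher genes was 1 as well with a pseudocount of 100, a filter at 200, quantile normalization, an intensity trend, or without tumor replicate 3, and scaled to the hybridisation controls it was 0 higher and 5 lower. Kdr, chosen after its values were seen, had 276, 480 and 341 in tumors, against 135, 203 and 266 in wild-type samples, and missed the threshold with a log2 fold change of 0.78 (limma adjusted p = 0.0735), or -0.17 when scaled to the hybridisation controls. Pdgfra thus had a log2 fold change of 2.42 between neighbours whose values ran from -0.67 to 0.78; whether it differs from them was not tested.

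Markers of cells that express Pdgfra or PDGF ligands moved with the groups. Of the fibroblast genes 9 of 14 tested rose and 1 fell (5 and 4 when scaled to the hybridisation controls), and their summed signal was 50662 to 75451 in tumors and 28276 to 33158 in wild-type samples. All 11 tested of 12 smooth muscle and pericyte genes rose, with sums of 16932 to 32660 in tumors and 4598 to 5918 in wild-type samples. Of the endothelial genes 9 of 16 rose and 0 fell, with sums of 8233 to 16451 in tumors and 2862 to 3924 in wild-type samples. Beside these counts, 14.5% of all tested genes rose and 12.6% fell. None of these 3 lists had a gene that stayed under 100 on every array. Under scaling to the hybridisation controls the smooth muscle list had 8 higher, and the endothelial list 5 higher and 1 lower. Without the filter, through which some of these genes passed only by their tumor signals, 9 of 12 smooth muscle, 8 of 16 endothelial and 7 of 14 fibroblast genes rose. The matrix genes Postn and Lum rose by 3.57 and 2.90 on the log2 scale, while Fbln1, the gene of another matrix protein, fell by 1.69 (limma SE 0.18, limma adjusted p = 0.00137). The pericyte gene Rgs5 rose by 3.73, the smooth muscle gene Cnn1 by 2.73 and the endothelial gene Sox18 by 2.81. Vwf, the gene of von Willebrand factor, was at least 4.72-fold higher in tumors. It passed the filter only through the tumor arrays, so its direction was bound. The higher counts were 7 for smooth muscle genes without tumor replicate 2 or wild-type replicate 1, and 5 for endothelial genes without any 1 of the tumors, where fewer genes passed the filter.

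The shares of all tested genes to set beside the next lists are 14.5% higher and 12.6% lower. All 10 tested of 12 macrophage genes rose (5 when scaled to the hybridisation controls), with sums of 13003 to 14847 in tumors and 2218 to 2906 in wild-type samples. The largest rises were those of C1qc, by 3.50, and C1qa, by 3.24, on the log2 scale. Fcgr1 passed the filter only through its tumor signals, so its direction was bound. With no filter 10 of the 12 rose and 0 fell. Platelet genes had 1 of 4 higher, Pf4, and sums of 726 to 1189 in tumors and 667 to 734 in wild-type samples. Pf4 alone read 414, 474 and 712 in tumors, against 135, 202 and 202 in wild-type samples. Gp5, Gp1bb and Itga2b did not pass, with log2 fold changes of -1.05, -0.53 and -0.17, and the median of the list was -0.35. Scaled to the hybridisation controls 0 of 3 tested platelet genes were higher and 2 lower, and Pf4 lost its call (limma adjusted p = 0.271). Granulosa cell genes were present in both groups, with 1 of 11 tested higher, 5 lower and 5 that did not pass. Of these last 5, Foxl2, Inha and Nr5a2 had every tumor below every wild-type sample, while Amhr2 and Esr2 overlapped. The median log2 fold change of the list was -0.51. Scaled to the hybridisation controls 1 gene was higher and 10 lower, with a median of -1.57. The changes of these genes lay far apart. Inhba and Inhbb, the genes of the activin beta subunits, fell, with log2 fold changes of -5.42 and -3.95. Amh, the gene of anti-Mullerian hormone, rose by 2.00 (limma SE 0.59, limma adjusted p = 0.0443), a call kept only without wild-type replicate 2 when samples were left out in turn. Foxl2, a granulosa transcription factor gene chosen after its values were seen, had means of 7546 ± 1097 in tumors and 10676 ± 907 in wild-type samples (SD, n = 3 each), and the granulosa sum was 78531 to 97131 in tumors and 184798 to 209929 in wild-type samples. In bulk samples fewer cells of a type and less RNA per cell cannot be told apart, and the part of these cell types in the Pdgfra, Pdgfa and Pdgfd results was not tested.

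Theca and interstitial genes, whose cells carry Kit and Pdgfra, went both ways, with 3 of 8 higher, 2 lower and 3 that did not pass. Over all tested genes the shares were 14.5% higher and 12.6% lower. Scaled to the hybridisation controls 2 of the 8 were higher and 4 lower. Gli1, a Hedgehog effector gene, was at least 6.24-fold higher in tumors (limma adjusted p = 0.000582). It passed the filter only through the tumor arrays, so its direction was bound. Without any 1 tumor it was not tested. With no filter the list again had 3 higher and 2 lower. Cyp17a1, the theca enzyme gene of androgen synthesis, fell by 4.85 (limma SE 0.62, limma adjusted p = 0.00261). From the same list, Cyp11a1 fell by 4.45 (limma SE 0.74, limma adjusted p = 0.00638). The summed theca signal was 38224, 39881 and 87435 in tumors, against 74795, 71491 and 88112 in wild-type samples.

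For each member, the genes of most similar pattern over the 6 arrays were taken by Pearson correlation of log2(signal + 32), among 7946 or 7947 genes with a group mean of at least 500. Where groups differ, such a value mainly restates the group difference, and no test is given. Pdgfra ran closest to Nars2 (r = 0.998), to the smooth muscle actin gene Actg2 (r = 0.997) and to Afap1 (r = 0.994). Pdgfa ran closest to Zg16 (r = 0.998), Rps18 (r = 0.998) and the tropomyosin gene Tpm4 (r = 0.998), and Pdgfd to Hsd17b11 (r = 0.994), Marchf6 (r = 0.994) and Mfap3l (r = 0.992). An r over 0.95 was reached by 303 genes for Pdgfra, 308 for Pdgfa and 159 for Pdgfd.

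Kit had only 4 genes with an r over 0.95. The closest were Rfk, the riboflavin kinase gene (r = 0.994), the chemokine receptor gene Cxcr4 (r = 0.972) and Ube2v1 (r = 0.951). Cxcr4 read 192, 1261 and 230 in tumors 1, 2 and 3, against 190, 280 and 306 in wild-type samples, so tumor 2 stood apart for both genes. As Kit varied mainly through tumor 2, a gene picked by its r with Kit was bound to show this. Kitl ran closest to Plscr1 (r = 0.996), Nip7 (r = 0.989) and Mtdh (r = 0.987), Pdgfb to Smyd5 (r = 0.993), Rsl24d1 (r = 0.991) and Tom1l2 (r = 0.985), and Pdgfc to Auh (r = 0.984), Thoc2 (r = 0.981) and Mppe1 (r = 0.980).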

How the data were processed

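Total RNA of 3 tumors and 3 wild-type granulosa cell samples was hybridised to 1 array each, per the labels. The authors deposited linear intensity values, 1 per probe set, from GCOS for tumor and MAS5 for wild-type arrays per the submitters' processing notes, with no version given. Signals were rescaled to a trimmed mean of 500 (2% left out at each end), filtered at 100 on at least 3 of 6 arrays, and tested as log2(signal + 32) with limma 3.58.1 in R 4.3.3 (lmFit, eBayes, 2-sided, Benjamini-Hochberg over 11611 genes). Fold changes on that scale understate those of dim genes; where every array of the dimmer group lay under 100, the fold is "at least", with those arrays set to 100. Gene names came from GEO's platform annotation; all 18 member probe sets matched the RefSeq table. The members and lists were chosen with earlier results of these data known. List genes were named by rule: the 2 largest called changes and the largest opposite one, or the smallest p with 0 called; for each member, the 3 genes of highest r among those with a group mean of at least 500. Others are said to be chosen after their values were seen. Nothing says that wild-type pools came from separate litters, so p-values measure the spread between these samples. The fit was tested on simulated data. Tables and figures used Python 3.11.15, pandas 2.3.3 and matplotlib 3.10.9. The number of arrays limits precision.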

Additional observations from a re-analysis of the deposited data

How the results depend on the processing

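Pdgfa, Pdgfd and Pdgfra kept their direction and call under all 17 alternatives run for each, with log2 fold changes of 1.20 to 2.47, -2.20 to -1.01 and 1.39 to 2.78. Kitl did not pass in 14 of 17, passing with an intensity trend (limma adjusted p = 0.0452), with the replicate block (limma adjusted p = 0.0408) and without tumor replicate 2; Kit (16 alternatives) and Pdgfb (17) were never called. The replicate block changed no other member's call; the numbers are not known to pair samples, and same-numbered samples had correlated deviations of only -0.0449, 0.0276 and 0.0900. Without 1 sample Kit ran from -0.0153 (tumor replicate 2) to 0.870. Without 1 sample at a time, 1 or 2 members were lower (2 without tumor replicate 3, by Pdgfc) and 2 or 3 higher.

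Scaled to 9 bacterial hybridisation control probe sets, the median of all genes moved to -1.02; Kit was then at -0.37, Pdgfb at -0.57, Furin at -0.11 and Kdr at -0.17, and 2 members were lower, Pdgfc with them (-1.65). Relative to that median the members stood at 2.41 for Pdgfra, 2.22 for Pdgfa, 1.07 for Kitl, 0.65 for Kit, 0.45 for Pdgfb, -0.63 for Pdgfc and -1.18 for Pdgfd. The count over all genes was 1686 higher and 1468 lower; it was 364 and 7879 under that scaling, 1732 and 910 with median scaling, and 2676 and 2884 with each probe set tested, where more features are counted. Without 1 sample it ranged from 886 to 1507 higher and 596 to 1421 lower, both lowest without wild-type replicate 1. Leaving out tumor replicate 2 gave 1049 higher and leaving out wild-type replicate 3 gave 1113 higher and 820 lower; 901 were lower in the fit lacking wild-type replicate 2. Other causes were not tested. The alternatives for list genes and list counts were chosen after seeing the data. Signals under 100 limit what Kit and the dimmer probe sets can show.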
